A study of Mus musculus with 4 samples.

Results

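Saa1, Saa2, Saa3, Lcn2, Orm1 and Hp encode secreted acute-phase proteins, and their transcripts were followed here through the cells of mouse ascites, the fluid that collects in the abdomen of animals with ovarian tumors. The 6 genes were taken by symbol out of the 32285 genes measured. They had been chosen because of their levels in these same libraries, so their levels are given as a description, with no test. Single-cell RNA sequencing counts unique molecular identifiers (UMIs), one per captured transcript, for each droplet barcode.

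The acute-phase response is a change in plasma proteins during infection, injury and inflammation, driven by interleukin 1, interleukin 6 and tumor necrosis factor through NF-kB, STAT3 and C/EBP factors. The liver is its best known site, where hepatocytes release serum amyloid A, haptoglobin and orosomucoid into the blood. Macrophages and neutrophils also make some of these proteins. Saa3 is the serum amyloid A gene that macrophages and adipose tissue use most, Lcn2 and Hp are both packed into the granules of neutrophils as these mature, and Lcn2 sequesters bacterial siderophores.

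Ascites came from female FVB mice, collected 6 weeks after injection of Br-Luc ovarian cancer cells (p53-/-; brca1-/-; myc; Akt-myr) into the peritoneal cavity. All mice received siRNA in jetPEI, either a control siRNA (siCont, 2 libraries) or an siRNA to Fxr1 (siFXR1-LNA, 2 libraries). The paper describes the locked-nucleic-acid form for both. Each library pooled the ascites of several animals, so the spread between libraries is not the spread between mice. Red cells had been lysed. The tumor cells were a single cell line, and the mice had an intact immune system.

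The libraries held 16874 to 54344 barcodes after filtering and 78179267 to 113606837 UMIs. Hemoglobin transcripts were 30.5% and 43.0% of all UMIs for siCont and 10.2% for each siFXR1-LNA library. The targeted gene was not lower in the libraries labelled siFXR1-LNA. Fxr1 stood at 55.8 and 33.9 CPM in siCont and at 104 and 71.8 in siFXR1-LNA. CPM are the UMIs of a gene per 1000000 UMIs of the same cells. With hemoglobin UMIs left out of the totals, Fxr1 was at 80.3 and 59.4 against 116 and 80.0, and these groups overlapped. In the epithelial- or mesothelial-like cells Fxr1 was at 113 and 135 CPM against 145 and 138. The groups are therefore named by their labels throughout. Any 2 libraries shared 598 to 2882 barcode sequences. Barcodes with 500 to under 800 genes detected, called shallow here, numbered 6520 and 1388 in siCont but 37525 and 3636 in siFXR1-LNA. In siFXR1-LNA replicate 1, 41174 barcodes of any depth fell in clusters that no marker list named.

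Hepatocyte transcripts were nearly absent from the ascites. Of 8 hepatocyte markers, among them Alb, Apoa1 and Ttr, 5, 5, 2 and 4 had no UMI at all in siCont replicates 1 and 2 and siFXR1-LNA replicates 1 and 2. Their summed level was 0.285 to 0.326 CPM in siCont and 0.461 to 0.488 in siFXR1-LNA.

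The serum amyloid A genes lie together on chromosome 7 of the mouse genome (GRCm38, the Ensembl annotation): Saa3 (ENSMUSG00000040026) at chr7:46711998-46715700 on the minus strand, Saa1 (ENSMUSG00000074115) at chr7:46740497-46742980 on the minus strand and Saa2 (ENSMUSG00000057465) at chr7:46751790-46754313 on the plus strand. Their first transcripts have 4 exons each. Lcn2 (ENSMUSG00000026822) lies at chr2:32384633-32388252, minus strand, with 6 exons. Orm1 (ENSMUSG00000039196) lies at chr4:63344560-63348163, plus strand, with 6 exons, and Hp (ENSMUSG00000031722) at chr8:109575128-109579172, minus strand, with 5. The Saa1 and Saa2 transcripts shared 93.9% of their bases, and 91.5% over the last 200 bases, where a library read from the 3' end of transcripts samples them. Counts of Saa1 and Saa2 can therefore be split or lost between these genes. Saa3 shared only 57.5% of those last bases with Saa1.

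Because the genes were high together in the same libraries, the 250 bases before the transcription start are shown for the 4 members that the RefSeq promoter table (GRCm38.p6) holds. Orm1 and Hp are named only. Capitals mark the match to the C/EBP letters TTGCNNAA, on either strand. RefSeq and Ensembl place some starts differently, so the Lcn2 window lies inside the Ensembl gene and the Saa2 and Saa3 windows overlap theirs. The windows are chr7:46742981-46743230 (minus strand) for Saa1, chr7:46751583-46751832 (plus strand) for Saa2, chr7:46715677-46715926 (minus strand) for Saa3 and chr2:32387740-32387989 (minus strand) for Lcn2.
Saa1: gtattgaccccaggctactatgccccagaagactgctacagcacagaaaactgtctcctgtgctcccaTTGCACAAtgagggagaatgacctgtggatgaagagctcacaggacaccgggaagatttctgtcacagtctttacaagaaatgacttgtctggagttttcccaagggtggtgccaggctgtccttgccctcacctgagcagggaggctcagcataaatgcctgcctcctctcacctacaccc
Saa2: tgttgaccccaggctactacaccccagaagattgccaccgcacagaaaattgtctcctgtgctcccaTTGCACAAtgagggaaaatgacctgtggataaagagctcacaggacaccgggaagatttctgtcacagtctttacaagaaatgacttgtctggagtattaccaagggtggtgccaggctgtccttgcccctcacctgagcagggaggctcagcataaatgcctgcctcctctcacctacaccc
Saa3: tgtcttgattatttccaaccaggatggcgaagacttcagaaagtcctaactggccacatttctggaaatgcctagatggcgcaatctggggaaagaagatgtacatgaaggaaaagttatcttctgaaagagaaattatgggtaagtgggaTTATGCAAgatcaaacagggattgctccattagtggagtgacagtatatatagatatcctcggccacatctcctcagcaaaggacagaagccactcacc
Lcn2: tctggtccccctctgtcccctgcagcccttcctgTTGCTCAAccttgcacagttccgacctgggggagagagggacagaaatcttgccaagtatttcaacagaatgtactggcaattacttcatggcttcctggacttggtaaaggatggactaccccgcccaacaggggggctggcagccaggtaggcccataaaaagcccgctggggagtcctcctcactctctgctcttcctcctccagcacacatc

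Each of the 4 windows held the C/EBP letters once, against 9.55% of the 27025 promoters in the table. The match started 182 bases before the start in Saa1, 183 in Saa2, 99 in Saa3 and 216 in Lcn2. The Saa1 and Saa2 windows were the same at 95.2% of bases, so their match is one shared sequence, and Saa3 matched Saa1 at 61.6%. The letters TTCNNNGAA (STAT, in 7.18% of promoters), GGG, any 2 bases, TTTCC (NF-kB, in 1.40%) and TATAAA (in 13%) were in none of the 4. These letters describe the windows and are not evidence of binding.

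Saa3 was highest in macrophage-like cells in every library. Its level there was 1070 and 1429 CPM in siCont and 54441 and 51322 in siFXR1-LNA. The groups did not overlap, and the log2 difference in the fit across all genes was 5.59 (SE 0.45), given here as for each member as a size with no test. Counting error was far smaller than this, with exact Poisson 95% limits of 1057 to 1084 in siCont replicate 1 and 51245 to 51400 in siFXR1-LNA replicate 2. Per cell, macrophage-like barcodes carried 5.64 and 11.6 Saa3 UMIs in siCont and 316 and 461 in siFXR1-LNA. The median cell held 1 and 0 UMIs in siCont against 81 and 109 in siFXR1-LNA, so the siCont means came from a minority of cells.

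Every other cell type was also higher for Saa3 in siFXR1-LNA, at a lower level. Neutrophil-like cells had 170 and 162 CPM in siCont and 8833 and 10787 in siFXR1-LNA. B-cell-like cells had 126 and 86.7 against 6716 and 7867, and T-cell-like cells 168 and 94.6 against 7308 and 8596. Dendritic-cell-like cells had 124 and 32.3 against 5984 and 4613. Lymphocytes are not known for making serum amyloid A. Epithelial- or mesothelial-like cells had the lowest level in all 4 libraries, with 43.7 and 32.1 CPM against 2705 and 2607.

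**Figure D1:**
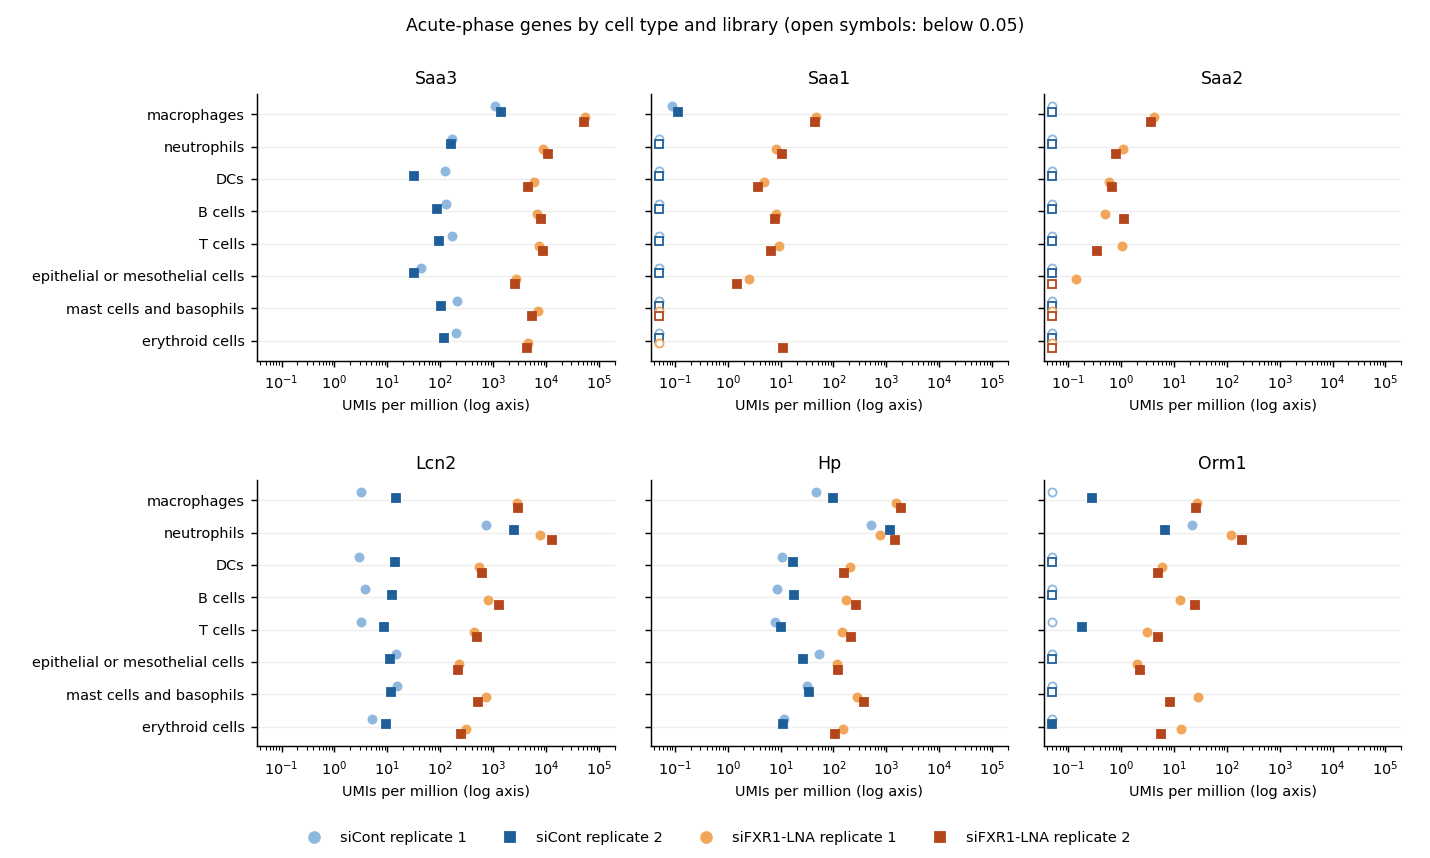
Level of each acute-phase gene (horizontal log axis, CPM) in 8 cell types for each of the 4 libraries, with open symbols for values below 0.05. Both siFXR1-LNA libraries lie to the right of both siCont libraries in 42 of the 48 panels' rows, and macrophage-like cells lead for Saa3 with 54441 and 51322.

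Over the 6 genes and 8 cell types, both siFXR1-LNA libraries were above both siCont libraries in 42 of 48 pairs, against 28.2% of all gene and cell type pairs tested. The 6 pairs outside this were Hp in neutrophil-like cells, Saa1 and Saa2 in erythroid-like and in mast-cell- or basophil-like cells, and Saa2 in epithelial- or mesothelial-like cells. The share of all pairs covers only those that passed the filter on low counts, while the 48 pairs were not filtered. Saa2 in B-cell-like cells, for example, rested on 1 and 2 UMIs in siFXR1-LNA. As the genes were selected on these levels, nothing is read from the count.

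Shallow barcodes served as a comparison for cells not known to make serum amyloid A. Whether they are cell-free was not tested. In the counts below, those in macrophage-like, neutrophil-like and mixed clusters were left out, but shallow barcodes of the other named types were kept. Each of these types is therefore compared partly with its own shallow barcodes. Most fell in no named cluster in siFXR1-LNA but few did in siCont, so the barcodes compared with differ between the groups. Their median depth was 1240 to 1813 UMIs, near the 1417.5 to 2092 of neutrophil-like cells over the 4 libraries. The largest cluster with no name, which held most of the shallow barcodes in siFXR1-LNA, was led by Ndufa4l2, Sprr1a and Ptgds. It raised 3 of 9 epithelial or mesothelial markers (Msln, Upk3b and Lrrn4), a smaller share of the list than naming required. Whether its barcodes are of the same kind as the epithelial- or mesothelial-like cells compared with them was not tested. Counted per barcode, and outside the macrophage-like, neutrophil-like and mixed clusters, shallow barcodes held 0.498 and 0.493 Saa3 UMIs in siCont and 15.1 and 20.2 in siFXR1-LNA. B-cell-like cells held 0.333 and 0.284 against 15.1 and 21.3. T-cell-like cells held 0.359 and 0.262 against 15.7 and 21.3, and epithelial- or mesothelial-like cells 0.286 and 0.259 against 15.5 and 19.6. These 3 types were therefore at or below the Saa3 count of the shallow barcodes, or above it by no more than the difference between replicates, although epithelial- or mesothelial-like cells were deeper (a median of 4914 to 8243.5 UMIs). Neutrophil-like cells were close to the same count, with 0.302 and 0.315 in siCont and 17.7 and 25.4 in siFXR1-LNA. Dendritic-cell-like cells, with 29.1 and 33.2 in siFXR1-LNA, lay above it, and so, by far more, did macrophage-like cells in every library.

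**Figure D2:**
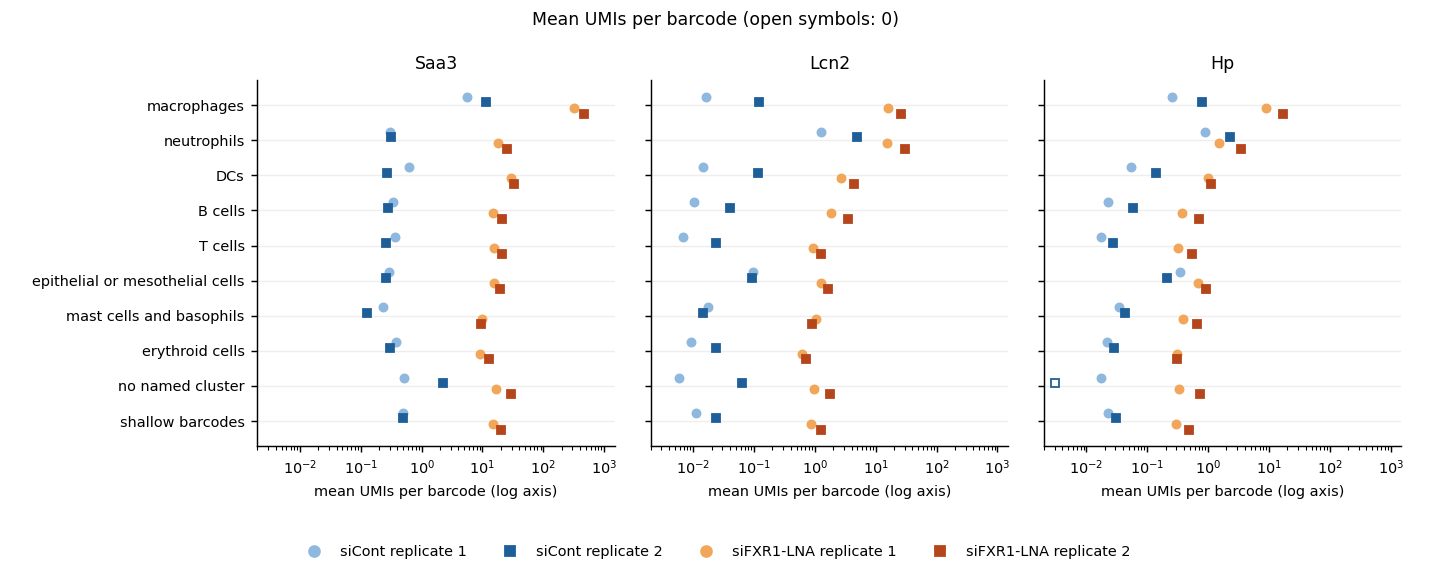
Mean UMIs per barcode (horizontal log axis) of Saa3, Lcn2 and Hp in each cell type, in barcodes of no named cluster and in shallow barcodes of 500 to under 800 genes outside macrophage-like, neutrophil-like and mixed clusters, for each of the 4 libraries. For Saa3, B-cell-like, T-cell-like and epithelial- or mesothelial-like cells line up with the shallow barcodes (15.1 and 20.2 in siFXR1-LNA), and macrophage-like cells stand apart at 316 and 461.

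The share of barcodes with any Saa3 UMI separated the groups, but in siFXR1-LNA it was no higher in macrophage-like than in B-cell-like cells. After thinning each barcode to 800 UMIs, 27.3% and 20.1% of macrophage-like cells in siCont and 98% and 96.5% in siFXR1-LNA had a Saa3 UMI (50.2%, 39.2%, 99.9% and 100% before thinning, at median depths of 4927, 7936.5, 5228 and 8625 UMIs). B-cell-like cells gave 10.5% and 8.58% against 99% and 98.8% after thinning (25.6%, 23.7%, 100% and 100% before, at 2385, 2721, 2021 and 2292 UMIs). A B-cell-like barcode of siFXR1-LNA thus had a Saa3 UMI about as often as a macrophage-like one, and a barcode with a Saa3 UMI cannot be called a cell expressing it. After thinning, the siFXR1-LNA shares were lower in dendritic-cell-like cells (88.7% and 85.3%) and in epithelial- or mesothelial-like cells (84.3% and 81.3%).

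Within the macrophage-like cells, 1 subcluster held most of the Saa3 transcripts of both siFXR1-LNA libraries. Its leading genes were Mt2, Cxcl3, Mt1, Wfdc21 and Ptges. Nos2, the inducible nitric oxide synthase, was detected in 72.2% and 74.1% of its cells and Arg1, an arginase that uses the same substrate, in 93.3% and 94.8%. It counted 2104 and 1906 cells in siFXR1-LNA and 0 and 1 in siCont, so the groups cannot be compared within it. Saa3 made up 75398 and 75454 CPM there, almost the same level in both libraries. The mean cell carried 553 and 828 Saa3 UMIs and the median cell 449.5 and 672. Even the 10th percentile cell, at 37.3 and 52.0 UMIs, was above the 90th percentile of shallow barcodes (21.0 and 29.0). The subcluster held 54.9% and 77.4% of all Saa3 UMIs of these libraries, and barcodes of no named cluster held 32.9% and 7.86%. Leaving out the barcodes with the 5% highest doublet scores removed 7.79% and 10.2% of its cells.

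The subcluster led by Prg4 and Alox15, genes of resident peritoneal macrophages, was present in all 4 libraries with 134, 661, 493 and 870 cells. Saa3 was at 6778 and 3604 CPM there in siCont and at 12796 and 9255 in siFXR1-LNA. This was the highest level of any siCont subcluster with at least 10 cells of each library, and the difference between the groups was much smaller than over all macrophage-like cells. The mean cell carried 34.5 and 33.0 Saa3 UMIs in siCont and 68.1 and 76.0 in siFXR1-LNA, beside 0.498 and 0.493 against 15.1 and 20.2 in the shallow barcodes. The spread among cells was wide in siCont replicate 2, whose median cell had 5 UMIs and whose 90th percentile had 107, and narrower in siCont replicate 1, with a median of 24 and a 90th percentile of 79.7.

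Among the other macrophage-like subclusters, those led by Ccl8, Fcna and Lyve1 and by Slfn4, Nr1h3 and Irf7 were mostly siCont cells. The former had 1287 and 698 CPM of Saa3 in siCont and 2953 in siFXR1-LNA replicate 2. Counted per barcode, these cells of siFXR1-LNA replicate 2 held about as many Saa3 UMIs as its shallow barcodes, while the siCont cells held more than theirs. The Slfn4 Nr1h3 Irf7 cells, which carried interferon-induced genes, had 108 and 41.8 in siCont and too few siFXR1-LNA cells for a value. Cycling cells, led by Pclaf and Birc5, had 384 and 445 in siCont and 24616 and 16102 in siFXR1-LNA. In these cycling cells the mean of 215 and 191 UMIs per cell in siFXR1-LNA was far above the median of 46.5 and 28, so a minority of cells carried most of it. The subcluster led by Ear2 and Retnla had 290, 189, 678 and 143 cells. That led by Cacna1d and Nos2 had 115, 42, 614 and 410. Per 100 macrophage marker UMIs, the Ear2 Retnla cells had 1.77 and 2.4 Saa3 UMIs in siCont and 38.4 and 41.2 in siFXR1-LNA. The Cacna1d Nos2 cells, which also raised 6 of 9 neutrophil markers, had 3.41 and 3.16 against 402 and 342. Per barcode in siFXR1-LNA, the Ear2 Retnla cells were near the shallow level and the Cacna1d Nos2 cells above it.

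**Figure D3:**
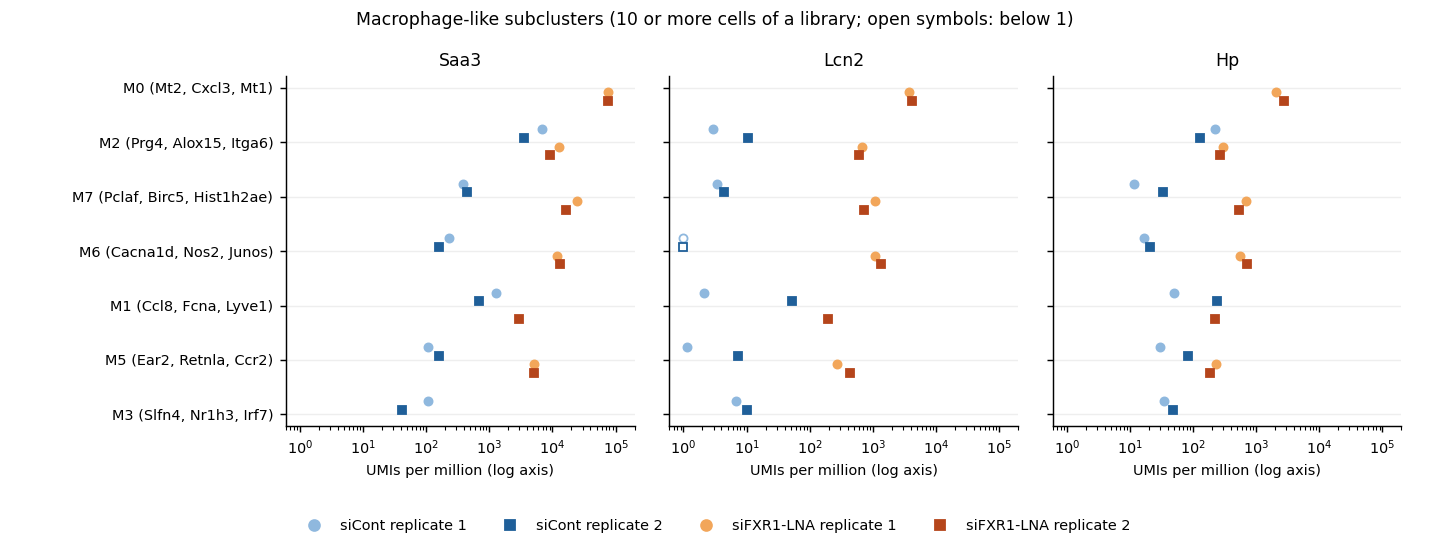
Saa3, Lcn2 and Hp levels (horizontal log axis, CPM) in the macrophage-like subclusters, labelled by M, a cluster number and 3 leading genes, for each library with at least 10 cells there. The Mt2 Cxcl3 subcluster has siFXR1-LNA values only, and in the Prg4 Alox15 subcluster the 4 libraries lie between 3604 and 12796 for Saa3.

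Saa1 and Saa2, the pair that hepatocytes release into plasma, were seen almost only in siFXR1-LNA. Macrophage-like cells held 2 and 2 Saa1 UMIs in siCont and 1049 and 1450 in siFXR1-LNA, which is 0.0871 and 0.116 against 46.1 and 44.2 CPM. The log2 difference was 8.94 (SE 0.22), against so few siCont UMIs that its size depends on the prior count of the fit. Saa2 had 0 and 0 UMIs in siCont and 98 and 119 in siFXR1-LNA (4.31 and 3.63 CPM), at least 20.9-fold higher when each siCont library is set at a floor of 3 counts. Neither group overlapped the other for these genes in macrophage-like cells. In the Mt2 Cxcl3 subcluster, Saa1 stood at 65.5 and 66.4 CPM and Saa2 at 5.70 and 5.41. That subcluster held 1011 of 1049 and 1388 of 1450 of the macrophage-like Saa1 UMIs. In the Prg4 Alox15 subcluster only 4 and 15 Saa1 UMIs were counted in siFXR1-LNA and 0 and 1 in siCont. Elsewhere Saa1 was near the shallow level of 0.0143 and 0.0180 UMIs per barcode, for example 0.0161 and 0.0247 in neutrophil-like cells of siFXR1-LNA, where 0 UMIs were counted in either siCont library.

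Lcn2, which encodes lipocalin 2, a neutrophil granule protein that binds bacterial siderophores, was highest in neutrophil-like cells in every library. Its level there was 721 and 2523 CPM in siCont and 7592 and 12987 in siFXR1-LNA. The groups did not overlap, the siCont libraries lay far apart, and the log2 difference was 2.29 (SE 0.66). Per barcode, neutrophil-like cells held 1.28 and 4.92 Lcn2 UMIs in siCont and 15.2 and 30.6 in siFXR1-LNA, against 0.0111 and 0.0239 and 0.871 and 1.26 in the shallow barcodes outside macrophage-like, neutrophil-like and mixed clusters. Lcn2 in neutrophil-like cells was thus far above these shallow barcodes in all 4 libraries.

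Among immature cells the groups overlapped for Lcn2. The neutrophil-like subcluster led by Camp, Ngp and Ltf, genes of the specific granules that are transcribed before neutrophils leave the bone marrow, counted 11, 33, 69 and 61 cells. Lcn2 was at 9550 and 12247 CPM there in siCont and at 9016 and 11130 in siFXR1-LNA, and these groups overlapped. Per cell this was 36.8 and 80.2 against 38.9 and 72.3. Camp was detected in 81.8% and 87.9% of these cells in siCont and in 42% and 49.2% in siFXR1-LNA. The subcluster also raised 6 of 7 B-cell and 5 of 8 T-cell markers above the other neutrophil-like subclusters, and its summed neutrophil markers were 214548 and 210343 CPM in siCont and 120492 and 159770 in siFXR1-LNA. The part of these differences in the Lcn2 level was not tested. With these few cells, the subcluster held 39.9% and 48.8% of all Lcn2 UMIs in the siCont libraries and 1.37% and 1.69% in siFXR1-LNA.

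In the subcluster with Nlrp12, Cxcr2 and Csf3r among its leading genes, Lcn2 was at 832 and 1719 CPM in siCont and at 1939 and 1665 in siFXR1-LNA, which also overlapped. Of the markers of mature neutrophils it raised Cxcr2 and Csf3r, while the Cxcl3 Ccl3 Cxcl2 subcluster described next raised Il1b, Ccl3 and Clec4e. The groups differed in which subclusters were present. The subcluster led by Cxcl3, Ccl3 and Cxcl2, neutrophil and macrophage chemoattractants, had 1127 and 3687 cells in siFXR1-LNA and 0 and 2 in siCont. Lcn2 was at 11437 and 14575 CPM in it, near the level in the Camp Ngp Ltf cells. A further siFXR1-LNA subcluster, led by Sprr1a and Tfrc, had 7063 and 8404. The subcluster with interferon-induced genes, led by Ifit3b and mostly of siCont cells, had 172 and 526 in siCont and 1078 in siFXR1-LNA replicate 2, and its leading genes also included the mast cell genes Mcpt4 and Cpa3.

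**Figure D4:**
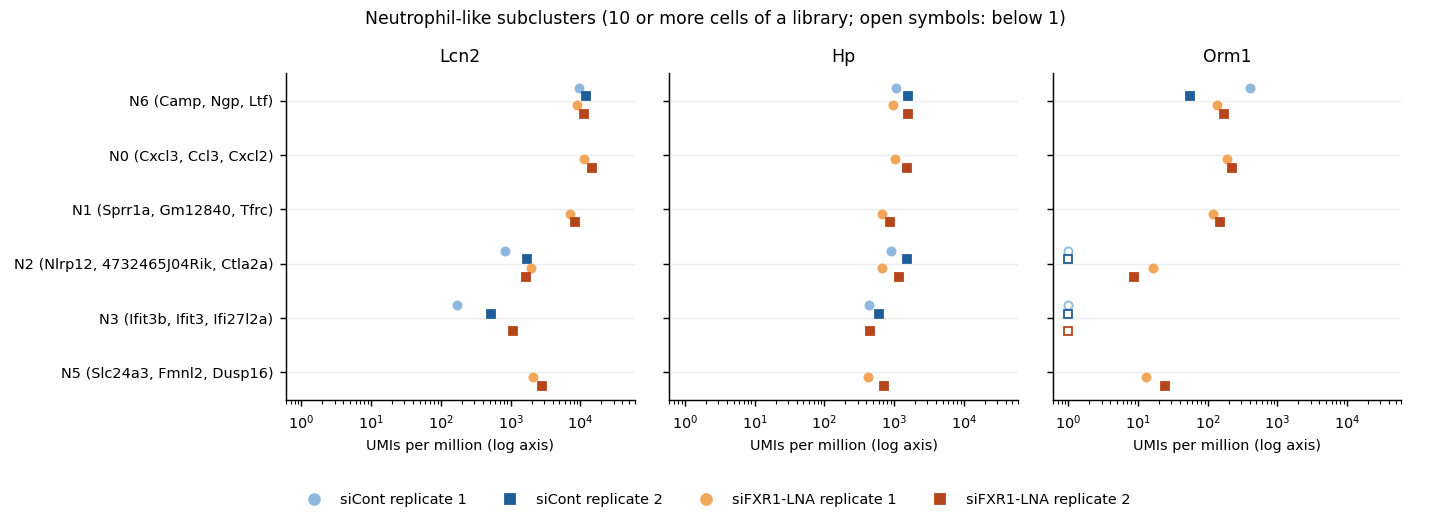
Lcn2, Hp and Orm1 levels (horizontal log axis, CPM) in the neutrophil-like subclusters, labelled by N, a cluster number and 3 leading genes, for each library with at least 10 cells there. In the Camp Ngp Ltf subcluster all 4 libraries lie between 9016 and 12247 for Lcn2, and the Cxcl3 Ccl3 Cxcl2 subcluster has siFXR1-LNA values only.

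Lcn2 was also carried by macrophage-like cells in siFXR1-LNA. Its level was 3.13 and 14.7 CPM in siCont and 2790 and 2931 in siFXR1-LNA, with no overlap and a log2 difference of 8.52 (SE 0.90). The siCont cells held 0.0165 and 0.119 Lcn2 UMIs per barcode, and the siFXR1-LNA cells 16.2 and 26.3, beside 0.871 and 1.26 in the shallow barcodes. The Mt2 Cxcl3 subcluster had 3804 and 4236 CPM and held 30.1% and 33.8% of all Lcn2 UMIs in the siFXR1-LNA libraries. Per 100 UMIs of the neutrophil markers (S100a8, S100a9 and others), this subcluster had 280 and 263 Lcn2 UMIs, while the Cxcl3 Ccl3 Cxcl2 neutrophil-like cells of the same libraries had 21.0 and 31.2. The subcluster raised the neutrophil markers S100a8, Mmp9 and Mmp8 above the other macrophage-like subclusters, and these count in that denominator. In the Prg4 Alox15 subcluster Lcn2 was at 2.93 and 10.7 CPM in siCont and at 673 and 610 in siFXR1-LNA.

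In shallow barcodes of siFXR1-LNA outside macrophage-like, neutrophil-like and mixed clusters, 5.78 and 6.26 Lcn2 UMIs were counted per 100 Saa3 UMIs. The Mt2 Cxcl3 subcluster had 5.05 and 5.61, and the Cxcl3 Ccl3 Cxcl2 neutrophil-like cells had 149 and 134. The ratio in the shallow barcodes was near that in the Mt2 Cxcl3 cells and far below that in the neutrophil-like cells. T-cell-like cells had 5.94 and 5.87, close to the shallow barcodes, whereas B-cell-like cells had 12.0 and 16.5. B-cell-like cells also carried more neutrophil marker UMIs than T-cell-like cells in siFXR1-LNA, 2172 and 2776 CPM against 678 and 749, and their part in this ratio was not tested.

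Hp encodes haptoglobin, the plasma protein that binds free hemoglobin, and its transcript did not separate the groups in neutrophil-like cells. Its level was 501 and 1158 CPM in siCont and 767 and 1460 in siFXR1-LNA. The groups overlapped, and the log2 difference was 0.07 (SE 0.55). Replicate 1 was lower than replicate 2 in both groups. In the Camp Ngp Ltf cells Hp was at 1085 and 1577 in siCont and 969 and 1566 in siFXR1-LNA, and in the Cxcr2 Csf3r cells at 891 and 1514 against 669 and 1194.

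Macrophage-like cells differed for Hp, with 47.5 and 98.3 CPM in siCont and 1523 and 1904 in siFXR1-LNA. The groups did not overlap and the log2 difference was 4.73 (SE 0.45). The Mt2 Cxcl3 subcluster had 2078 and 2800 CPM and held 53.8% and 68.6% of all Hp UMIs in these libraries. In the Prg4 Alox15 subcluster Hp was at 220 and 127 in siCont and at 301 and 264 in siFXR1-LNA, again a small difference without overlap. Shallow barcodes outside macrophage-like, neutrophil-like and mixed clusters also held more Hp UMIs per barcode in siFXR1-LNA than in siCont. The part of this in the small difference was not tested. The share of Hp UMIs in neutrophil-like cells was 15.3% and 43.2% in siCont and 13% and 18.7% in siFXR1-LNA, so in all 4 libraries most haptoglobin transcript lay outside neutrophil-like cells.

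A keratin-rich subcluster of epithelial- or mesothelial-like cells also carried Hp. In it Wt1, a transcription factor of mesothelium and ovarian surface, was detected in 92.0% to 98.8% of cells and Krt8 in 86.4% to 92.0%. Hp was at 128 and 75.6 CPM there in siCont and at 454 and 179 in siFXR1-LNA. These groups did not overlap, and the subcluster had 173, 25, 81 and 66 cells. The neighbouring subcluster led by Sgcz, mostly siCont cells, had 6.23 and 6.81 in siCont. In siFXR1-LNA the subcluster led by Ampd3 and Maoa also held Hp. Its CPM was well below that of the keratin-rich cells in replicate 1 but near it in replicate 2. For Lcn2 the keratin-rich cells had 34.8 and 27.8 against 367 and 240, and for Saa3 29.2 and 7.95 against 1983 and 1497, the lowest Saa3 of the subclusters that had a value in all 4 libraries.

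Orm1, which encodes orosomucoid, a plasma carrier of lipophilic compounds, was highest in the same neutrophil-like subclusters as Lcn2. Neutrophil-like cells had 21.7 and 6.81 CPM in siCont and 123 and 197 in siFXR1-LNA, from 17, 12, 1234 and 2164 UMIs. The groups did not overlap, with a log2 difference of 3.36 (SE 0.55). All 17 and 12 siCont UMIs came from the Camp Ngp Ltf cells, where Orm1 was at 401 and 55.5 against 138 and 169 in siFXR1-LNA, with overlap. The Cxcl3 Ccl3 Cxcl2 subcluster had 188 and 222. The Cxcr2 Csf3r cells had 0 and 0 UMIs in siCont and 16 and 5 in siFXR1-LNA. Macrophage-like cells held 1 and 5 Orm1 UMIs in siCont and 626 and 848 in siFXR1-LNA (27.5 and 25.9 CPM), with no overlap. The Mt2 Cxcl3 subcluster was at 35.9 and 35.3.

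The order of the cell types therefore differed between members. In siFXR1-LNA, Saa3, Saa1, Saa2 and Hp were highest in macrophage-like cells, and Lcn2 and Orm1 in neutrophil-like cells. For Hp the 2 cell types were near each other in siFXR1-LNA (1523 and 1904 against 767 and 1460) and exchanged places in siCont (47.5 and 98.3 against 501 and 1158). For Saa3 in siFXR1-LNA, neutrophil-like cells (8833 and 10787) came next below macrophage-like cells. T-cell-like and B-cell-like cells (7308 and 8596, and 6716 and 7867) followed and overlapped each other, and dendritic-cell-like cells (5984 and 4613) lay below both. This order is of CPM and depends on depth. Dendritic-cell-like barcodes were deeper, with medians of 4560.5 and 6836 UMIs against 1987 and 2291.5 in T-cell-like cells. Counted per barcode, they lay above neutrophil-like, T-cell-like and B-cell-like cells, and the last 2 types were at about the shallow level.

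The genes most like each member were found by Pearson's correlation of log2(CPM + 10) over 32 points, 8 cell types in 4 libraries, which share depth within a library, and the values are a description. For Saa3 they were the metallothioneins Mt2 (r = 0.93) and Mt1 (0.91), then Bnip3 (0.87), Ctsl (0.87) and Ms4a4a (0.86). Mt2 in macrophage-like cells was at 13.6 and 7.13 CPM in siCont and at 1179 and 1246 in siFXR1-LNA. For Lcn2 they were Wfdc21 (0.96), the chemokine Cxcl2 (0.96), Hp (0.94), Bnip3 (0.93) and Clec4e (0.93). For Orm1 they were Wfdc21, Fpr2, Cxcl2 and Ccl3 (0.88 each) and Ccrl2 (0.86), and for Hp Clec4e (0.97), Lcn2 (0.94), Wfdc21 (0.94), Acod1 (0.92) and Cxcl2 (0.92). In neutrophil-like cells Wfdc21 was at 217 and 814 CPM in siCont and at 1556 and 2603 in siFXR1-LNA. Saa1 and Saa2 did not reach 50 CPM in any cell type and were not ranked.

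The other genes of the response were examined as 89 genes in 6 lists, tested with edgeR over all genes. Genes named below beyond the 5 largest rises and falls in a cell type were chosen after their values were seen, as was Arg1 above. In macrophage-like cells 60 were tested, 24 rose and 5 fell in siFXR1-LNA, beside 9.39% of all genes that rose and 9.81% that fell. Their median log2 difference was 0.56, against 0.01 for all genes. These sums also differ in make-up, as the Mt2 Cxcl3 subcluster counted 2104 and 1906 cells in siFXR1-LNA and 0 and 1 in siCont. Rises and falls here and below therefore describe the sums, and no subcluster present in both groups was tested. Without siFXR1-LNA replicate 1 the counts became 7 and 0, without siFXR1-LNA replicate 2 they were 7 and 1, and without siCont replicate 1 or 2 they were 20 and 3 or 23 and 3.

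Among the inducing cytokines, 4 of 7 tested rose in macrophage-like cells. Il1a had 7.40 and 4.41 CPM in siCont and 38.6 and 44.9 in siFXR1-LNA, a log2 difference of 3.00 (SE 0.25). Il1b, Tnf and Clcf1 rose too, by 1.99, 1.03 and 1.03. Of the cytokine receptors and decoys, 4 of 11 rose. The signalling receptor Il1r1 had 1.52 and 0.696 against 61.8 and 54.5 CPM, a log2 difference of 5.85 (SE 0.31, adjusted p = 0.00357). The decoy Il1r2, the antagonist Il1rn and the tumor necrosis factor receptor Tnfrsf1b rose by 3.19, 1.65 and 0.81.

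Of 14 signalling and transcription factor genes tested in macrophage-like cells, 5 rose and 2 fell. The feedback inhibitors Nfkbia and Socs3 rose by 1.96 and 1.83, and Nfkbiz, a nuclear cofactor for a set of NF-kB targets, by 1.21. Relb and Jak2 rose by 0.94 and 0.61. Cebpe, a factor of granulocyte maturation, fell by 2.13 on the log2 scale (SE 0.30), and Cebpa fell by 0.53 (SE 0.13). Of 14 receptors and partners of the acute-phase products, 6 rose and 1 fell. The formyl peptide receptors Fpr1, Fpr2 and Fpr3, of which Fpr2 also binds serum amyloid A, rose by 2.05, 2.99 and 4.57. Mmp9, whose protein forms a complex with lipocalin 2, went from 15.5 and 13.8 to 244 and 239 CPM (log2 difference 4.23, SE 0.14). Hmox1, which degrades heme, and Ager rose by 1.79 and 2.76. Tlr4 fell by 0.71.

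Of 12 other acute-phase genes tested in macrophage-like cells, 5 rose and 2 fell. Ptx3, a long pentraxin made by myeloid cells, had 0 and 0 CPM in siCont and 2.07 and 3.08 in siFXR1-LNA. Chil1 rose by 4.32, Orm2, a copy of Orm1, by 3.16, Cd14 by 2.21 and C3 by 2.04. Serpina3g and Lrg1, which is a liver acute-phase protein, fell by 2.23 and 0.97. Neither of the 2 negative acute-phase genes tested was called.

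**Figure D5:**
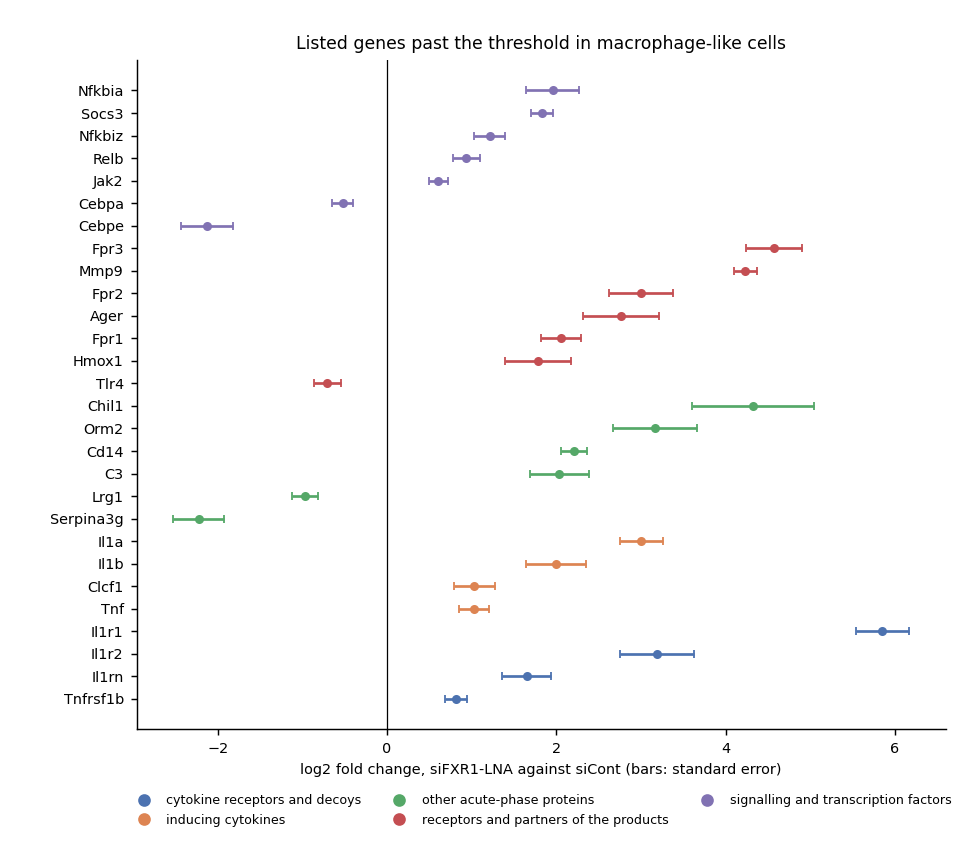
Log2 difference between siFXR1-LNA and siCont (horizontal axis, points, with bars of 1 standard error) for the listed genes past the threshold in macrophage-like cells, colored by list. Ptx3 is not drawn because its siCont libraries had 0 UMIs. Il1r1, at 5.85, lies farthest to the right and Serpina3g, at -2.23, farthest to the left.

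In neutrophil-like cells 6 of 57 listed genes tested rose and 1 fell, beside 1.01% and 2.45% of all genes. Il1a rose from 1.28 and 0 to 13.2 and 27.2 CPM, and Il1rn by 2.28 on the log2 scale. Cp (ceruloplasmin, a copper carrier) rose by 2.91, Cfb (complement factor B) by 2.52, Cd14 by 2.31 and Trf by 1.86. Steap4, a metalloreductase, fell by 2.69 (SE 0.57). In siFXR1-LNA, Cp, Cfb and Trf lay near the shallow level per barcode, with 0.235 and 0.182 against 0.207 and 0.145 for Cp, 0.0336 and 0.0552 against 0.0275 and 0.0543 for Cfb, and 2.43 and 3.11 against 2.12 and 2.58 for Trf. Without siFXR1-LNA replicate 2 the counts were 1 and 2, without siFXR1-LNA replicate 1 they were 4 and 0, without siCont replicate 1 they were 10 and 7, and without siCont replicate 2 they were 15 and 0.

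Epithelial- or mesothelial-like cells had 44 listed genes tested, of which 10 rose and 2 fell (2.69% and 4.61% of all genes). Cp rose, with 141 and 167 CPM in siCont and 473 and 402 in siFXR1-LNA (log2 difference 1.54, SE 0.28). Its 2.70 and 3.02 UMIs per barcode in siFXR1-LNA stood well above the 0.207 and 0.145 in shallow barcodes. Il1rn and Il1r1 fell by 1.27 and 1.28, opposite in sign to macrophage-like cells, and the difference between the cell types was not tested. Cd14 rose by 3.35 but was at the shallow level, 0.0774 and 0.110 UMIs per barcode against 0.0748 and 0.124, and Fpr2, which rose by 3.49, had 0.0258 and 0.0254 against 0.0191 and 0.0254. Fpr1, which rose by 3.04, was near it too, with 0.0266 and 0.0282 against 0.0196 and 0.0338. Chil1 and Il1b rose by 2.50 and 2.77. Without siCont replicate 1 the counts were 3 and 1, and without siFXR1-LNA replicate 1 they were 7 and 1. Without siCont replicate 2 they were 11 and 1.

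Dendritic-cell-like cells had 12 of 50 listed genes higher and 0 lower, beside 1.04% and 1.24% of all genes. Their median log2 difference was 0.58, and medians of the listed genes were 0.56, 0.36, 0.57 and 0.90 in neutrophil-like, epithelial- or mesothelial-like, T-cell-like and B-cell-like cells, where medians of all genes were -0.01 to 0.01. The largest rises in dendritic-cell-like cells were those of Chil1 (4.4), Fpr2 (3.54), Fpr1 (3.52), Cd14 (2.73) and Mmp9 (2.62). Per barcode in siFXR1-LNA these genes lay above the shallow level, for example Cd14 at 0.430 and 0.563 against 0.0748 and 0.124. Cp, which was also called, had 0.238 and 0.257 against 0.207 and 0.145. Neutrophil markers in these cells were at 114 and 651 CPM in siCont and 1894 and 1207 in siFXR1-LNA. Their part in these rises was not tested. Of the listed genes that were lower, 1 had an unadjusted p under 0.05 and DESeq2 called 0. With siFXR1-LNA replicate 1 or 2 left out, edgeR called no listed gene. T-cell-like cells had 2 of 54, Cd14 and Itgam, beside 0.328% of all genes in either direction. Both were near the shallow level per barcode in each siFXR1-LNA library, 0.0829 and 0.114 against 0.0748 and 0.124 for Cd14, and neither was called when siFXR1-LNA replicate 1 or 2 was left out. Without siCont replicate 1 or 2, 12 or 5 listed genes were called higher. Mast-cell- or basophil-like cells had 1 of 9, Trf, which encodes transferrin (2.64% of all genes in either direction). Its 1.97 and 1.90 UMIs per barcode in siFXR1-LNA were below the 2.12 and 2.58 of shallow barcodes. With edgeR, B-cell-like cells had 0 of 52 listed genes past the threshold (0.112% of all genes in either direction) and erythroid-like cells 0 of 49 (0.0941%), while 23 were higher and 3 lower in the former, and 2 and 1 in the latter, at an unadjusted p under 0.05. DESeq2 called 18 of them higher in B-cell-like cells and 0 in erythroid-like cells. In B-cell-like cells edgeR called 20 higher and 1 lower without siCont replicate 1, and 17 higher without siCont replicate 2.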

How the data were processed

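The deposited files hold UMI counts per gene and barcode for 4 libraries, which the authors made with Cell Ranger (7.0.0 in the labels) against mm10. The study's own analysis set aside a siFXR1-LNA replicate that the labels do not identify, and both siFXR1-LNA libraries are used here. Following the study's filter, barcodes needed 100 to 4800 genes and no more than 15% of UMIs from mitochondria. They were clustered with Seurat 5.3.0 (Louvain, resolution 0.1, 50 principal components, the 6 members left out of the variable genes, then again within clusters). Clusters were named from marker lists, and subclusters were left out as mixed where 3 or more markers of another type were raised and 1 of these was among the leading genes, so some that were kept also carry markers of other types. The naming thresholds were set after the clusters were seen (3 raised markers and 40% of a list). The members and all gene lists were chosen with earlier results of these data known.

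Counts were summed per library and cell type. A level is CPM, UMIs per 1000000 of that sum, with exact Poisson 95% intervals that cover counting error only. In sums over a cell type, fewer expressing cells and less RNA per cell cannot be told apart. Sums were tested with edgeR 4.0.16 (R 4.3.3; quasi-likelihood, TMM, filterByExpr, Benjamini-Hochberg over all genes, threshold 0.05), siFXR1-LNA against siCont, in each of 8 cell types with at least 10 cells in every library. Libraries were the replicates, and p-values measure the spread between these pooled samples. Listed genes were named by the 5 largest rises and the 5 largest falls per cell type, and genes alike by the 5 highest correlations among genes with a mean of at least 20 CPM. No doublets were removed. In simulated data, every gene had the same dispersion of 0.05, a spread between libraries beyond counting error. The fit recovered 94.5% of 200 genes changed 4-fold for macrophage-like cells (14238 genes) and 97.0% for neutrophil-like cells (12159 genes). False calls numbered 2 and 11. The real sums need not share this dispersion, so these shares are not the power of the reported tests. Alternatives were other filters, cell naming, normalization, DESeq2 1.42.0, a replicate block and leaving out each library.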

Additional observations from a re-analysis of the deposited data

How the results depend on the processing

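The count of 42 gene and cell type pairs with both siFXR1-LNA libraries above both siCont libraries was 41 or 42 under 4 alternatives and 32 of 36 with cells named from their own markers, where T cells and mast cells could not be fitted. Of 437 alternative values for the members' log2 differences, 357 moved by less than the SD between replicates of log2(CPM + 1), 78 by more in the same direction and 2 reversed, both for Hp in neutrophil-like cells, at -0.44 without siCont replicate 1 and -0.51 without siFXR1-LNA replicate 2, in a range of -0.51 to 1.08 over the libraries left out. Saa3 in macrophage-like cells ranged from 5.36 to 5.85 and Lcn2 in neutrophil-like cells from 1.64 to 3.76. For shallow barcodes the Saa3 level of 259 and 253 CPM in siCont and 10852 in siFXR1-LNA replicate 1 became 154, 121 and 6158 at 100 to under 500 genes, and in siCont 580 and 3837 in shallow barcodes of no named cluster (24 and 11 barcodes). Lcn2, at 181 in siCont replicate 2 and 1201 in siFXR1-LNA replicate 2, became 10.6 and 576 at 100 to under 500 genes and 0 and 531 in shallow barcodes of no named cluster. Leaving out macrophage-like, neutrophil-like and mixed clusters, an alternative chosen after seeing the data, gave Saa3 255 in siCont replicate 1 and Lcn2 12.3 and 525 in the latter libraries.

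Summed over cell types, 55 listed genes were higher and 8 lower. DESeq2 gave 84 higher, and no filter on low counts gave 115 and 17. With the replicate number as a block, 102 were higher and 15 lower, of which 20 and 1 in B-cell-like cells, where the fit without it called 0. Only 2 pairs exist and no label ties equal numbers together, so the pairing was not used (correlation of deviations -0.22 to 0.52 over cell types). Crossing the pairing, also chosen after seeing the data, gave 27 and 2. Leaving out 1 library gave 19 to 85 higher and 1 to 12 lower. The cause of these shifts was not tested.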
